A study of Mus musculus with 9 samples.

Results

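The baseline state of mouse NPK prostate cancer cells was described from the 3 control libraries of an RNA-seq series of 9 libraries. These 3 libraries were selected by their labels alone, and all 12842 genes with a value were ranked by the mean of the 3 values. The study from which they come searched for drivers of metastatic prostate cancer within the tumor cells and studied the histone methyltransferase NSD2 as 1 of them, and the other 6 libraries, from treated NPK cells, were not used here. NPK cells were isolated from lung metastases of genetically engineered mice in which tamoxifen activates a Cre recombinase in prostate epithelium, with a yellow fluorescent reporter (R26R-YFP). The cells were grown at early passage in RPMI medium with fetal bovine serum. The labels call these libraries control cells and the cell type prostate cancer, and they do not state whether the cells carried a control shRNA or received vehicle, or whether the 3 libraries were separate cultures. The spread between libraries may therefore be technical.

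Prostate epithelium is built of luminal cells, which carry keratins 8 and 18 and secrete into the duct, and basal cells, which carry keratins 5 and 14 and the transcription factor p63 and rest on a basement membrane. Carcinoma cells can lose epithelial junctions and gain cytoskeletal and matrix genes of mesenchymal cells, and intermediate states with both sets are known.

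The deposited values are log2 levels and were taken to grow with the length of a transcript, an assumption because their transform is not named. Genes were therefore compared with each other only per length, as the deposited value minus the log2 of the gene length in kilobases, and each gene was given its percentile among the 12513 genes with a length (50 is the median gene). The abundance of a gene is its share of the summed antilog per-length level of a library, scaled so that all genes sum to 1000000, and it is approximate because the transform of these values is not named. Depth is unknown, and low values are compressed, so that the order of genes at the bottom of the scale is set partly by length.

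Control library 1 stood apart from libraries 2 and 3. The median absolute difference of the deposited log2 values was 0.07 between libraries 1 and 2, 0.07 between libraries 1 and 3 and 0.04 between libraries 2 and 3. Library 1 was the farthest from the middle value for 7277 genes, against 2626 for library 2 and 2939 for library 3. The spread was small next to the range of levels, from 1.63 to 18.39, and the median SD over all genes was 0.05 (n = 3). Leaving library 1 out shifted the per-length percentile of 682 listed genes by a median of 0.17 points and by at most 2.21 points, for Gdf15, a stress-induced ligand of the TGF-beta family.

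The most abundant transcripts came from translation, mitochondrial respiration, the cytoskeleton and glycolysis. On the deposited log2 scale Eef1a1, the elongation factor that brings tRNAs to the ribosome, ranked first with values of 18.28, 18.39 and 18.39 in libraries 1 to 3 (18.35 ± 0.06, SD, n = 3). Gapdh, a glycolytic dehydrogenase, followed with deposited values of 18.13, 18.27 and 18.23 (18.21 ± 0.07). Per length Eef1a1 and Gapdh were at ranks 1 and 5. Between them per length lay the mitochondrially encoded oxidase subunits mt-Co1 and mt-Co2 and Lgals1, a secreted galectin. In library 1 alone mt-Co1 was above Eef1a1 per length, with an abundance of 14886 against 14095. Of the 30 genes highest on the deposited scale, 17 were also among the 30 highest per length. Long genes made up part of the difference: the filamin Flna, which crosslinks actin, the myosin Myh9 and the giant scaffold Ahnak were among the 30 highest on the deposited scale only.

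A few genes held much of the summed per-length level. The 100 highest genes held 32.2%, 32.6% and 32.1% of it in libraries 1 to 3 (32.3 ± 0.22%, n = 3), and the 10 highest held 9.22 ± 0.09%. Cytoplasmic ribosomal proteins, 83 genes found by symbol, held 11.7 ± 0.23%, and 30 of them were among the 100 highest. The 13 mitochondrially encoded proteins held 6.41% in library 1, 5.60% in library 2 and 5.43% in library 3. Library 1 was the highest for this share. Ribosomal proteins, actins, tubulins and elongation factors have many near-identical copies in the genome, so that their single values are uncertain, and 3 of the 100 highest genes per length were annotated as pseudogenes (Gm13841, Hmgn2-ps1 and Gm10163, chosen after their values were seen).

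**Figure D1:**
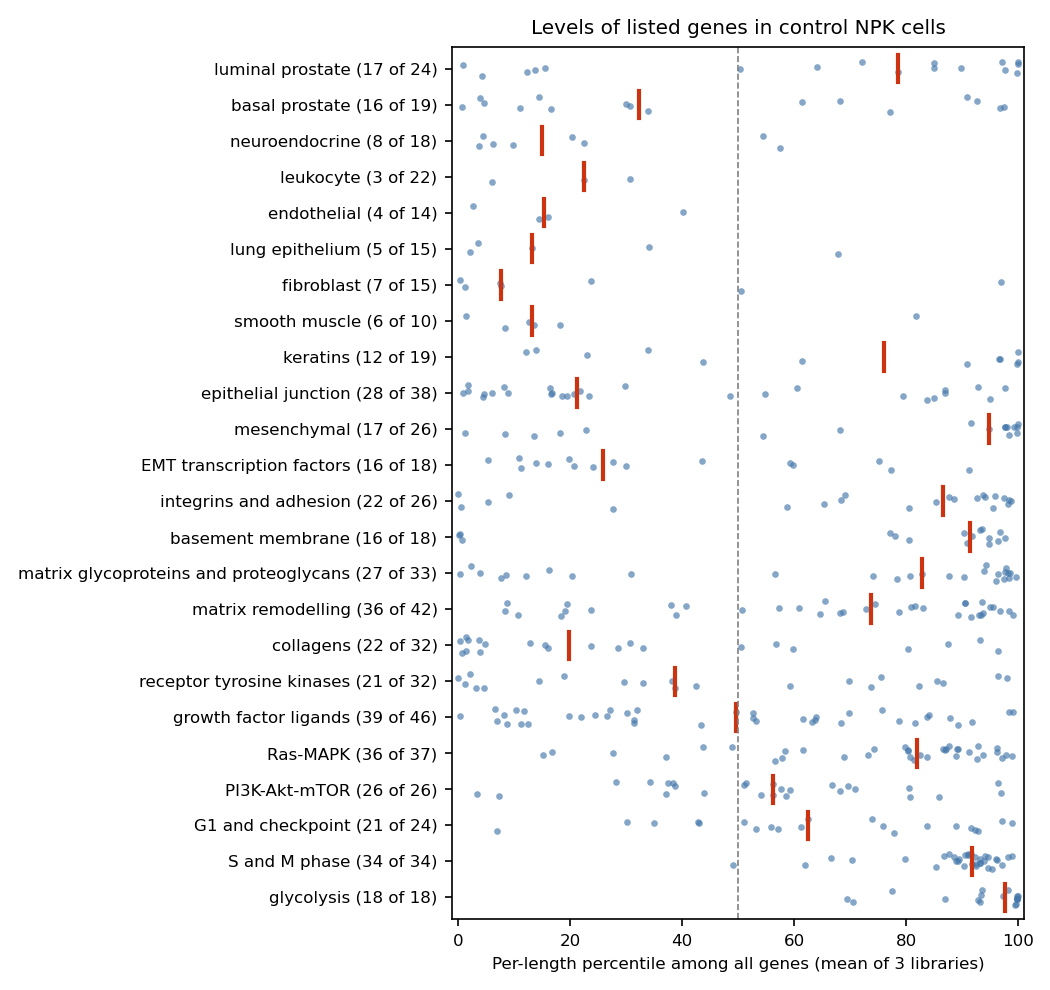
Each point is a gene of a list, placed by its per-length percentile among 12513 genes in the mean of the 3 control libraries; red bars are list medians, the dashed line marks percentile 50, and the numbers in parentheses are genes with a value and a length out of genes in the list. Glycolysis, mesenchymal, S and M phase and basement membrane genes have medians above 90, and lists of other cell types have medians below 25.

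The cells expressed simple epithelial keratins at very high levels. Krt8 had deposited values of 16.21, 16.35 and 16.28 in libraries 1 to 3 (16.28 ± 0.07, n = 3), and its partner Krt18 had 15.25, 15.47 and 15.44 (15.38 ± 0.12). Krt19, the smallest keratin of simple epithelia, had 16.08, 16.28 and 16.24 (16.20 ± 0.11). All 3 were lowest in library 1 and lay within the uppermost 1% of genes per length, with abundances of 4433 ± 156 for Krt8, 4421 ± 254 for Krt19 and 3249 ± 223 for Krt18. Krt8 and Krt18 are neighbors in the mouse genome and encode the partners of a filament pair. Krt7, a keratin of ductal epithelia, was at per-length percentile 96.6, Krt15 at 96.7 and Krt13, a keratin of stratified mucosa, at 90.8. Among keratins found in epidermis, Krt14 of the basal layer was at percentile 61.3, Krt10, which marks differentiated cells, at 14.0 and the wound keratin Krt16 at 12.2. Of 19 keratins in the list, 12 had a value and their median percentile was 76.1, against 50 over all genes.

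Luminal markers were expressed in part. Of 24 luminal prostate markers 17 had a value, with a median per-length percentile of 78.5 (78.6 without library 1), 5 in the upper 10% and 5 in the lowest 25%. The highest were the keratins, the tight junction protein Cldn3 at percentile 97.6 and the surface glycoprotein Cd24a at 97.1. Foxa1, a pioneer factor that opens chromatin in luminal cells, had deposited values of 11.53, 11.36 and 11.37 (11.42 ± 0.09, n = 3) and percentile 85.0. Hoxb13, a homeobox factor of the posterior body and prostate, had deposited values of 10.25, 10.32 and 10.28 (10.28 ± 0.04) and percentile 78.5. Both factors were above the median gene in each library.

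Gata2, a zinc finger factor of luminal cells, was at percentile 64.1; Foxa1 and Gata2 were singled out after their values were seen. Several products of mature luminal cells were low or had no value. Tmprss2, an androgen-induced protease, was at per-length percentile 13.8, Slc45a3 at 15.6 and prostatic acid phosphatase (Acp3) at 0.97. Pbsn, Psca, Msmb, Folh1, Spdef and Dpp4 had no value analysed here, so that several defining markers of the labeled tissue could not be checked.

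Genes that respond to androgen or assist steroid receptors ranged from high to low. Of 23 genes in that list 18 had a value, with a median per-length percentile of 58.0 and 12 above the median gene. Some members, such as Fkbp5, Ndrg1 and Tmprss2, are also in the luminal list. The chaperones and cochaperones that hold steroid receptors were high: Hsp90ab1 was at rank 15 per length, Fkbp4 at percentile 97.7 and Hsp90aa1 at 97.0. Among induced targets, Fkbp5 was at percentile 72.2 and Ndrg1, which also responds to low oxygen, at 89.8. The targets Steap4 and Eaf2 were at 10.3 and 2.34. Chaperones are expressed in all cells, and their level does not measure receptor activity.

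Basal markers ranged from the top to the bottom of the scale. Of 19 basal genes 16 had a value, with a median per-length percentile of 32.4 (32.8 without library 1). The receptor subunit Itga6 and the keratin Krt15, at 96.7, led the list. Itga6 had deposited values of 15.17, 15.15 and 15.15 (15.16 ± 0.01, n = 3) and per-length percentile 97.4, and its hemidesmosome partner Itgb4 was at 92.7. Lamb3, a chain of the laminin that these integrins bind, was at 77.1, whereas Lama3, another chain of that laminin, had deposited values of 3.79, 3.80 and 3.70 and percentile 0.83. Trp63, which encodes the basal factor p63, had deposited values of 4.94, 4.81 and 4.85 (4.87 ± 0.06) and percentile 3.95. Krt14 was at 61.3, and Krt5, Krt17 and Col17a1 had no value analysed here. Cdh3, which encodes P-cadherin, was at 11.2.

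**Figure D2:**
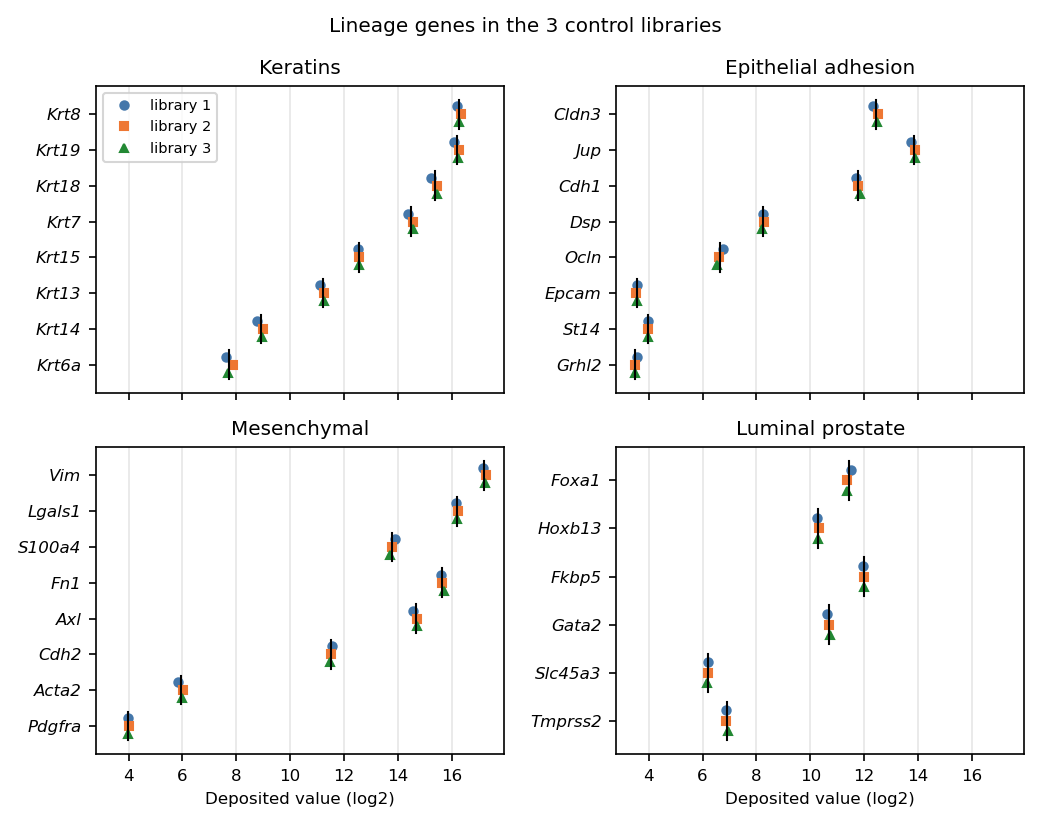
Deposited log2 values of 30 lineage genes in each control library (circles for library 1, squares for library 2 and triangles for library 3). Black bars are means. Values are taken to include gene length, so that genes are to be compared per length as in the text. The 3 libraries lie close together for every gene drawn, and both keratins and mesenchymal genes reach values above 16.

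Epithelial junction genes were unevenly expressed. Of 38 genes in the list 28 had a value, with a median per-length percentile of 21.2 (21.5 without library 1); 10 were above the median gene and 16 in the lowest 25%. The claudin Cldn3, the plakoglobin gene Jup at percentile 95.0, the junctional receptor F11r at 92.8, the scaffold Tjp1 at 87.0 and the protease inhibitor Spint2 at 86.9 were highest. Cdh1, which encodes E-cadherin, had deposited values of 11.70, 11.79 and 11.84 (11.77 ± 0.07, n = 3) and percentile 83.8. Epcam, the epithelial adhesion molecule, had deposited values of 3.55, 3.54 and 3.55 (3.55 ± 0.01) and percentile 6.04, close to the bottom of the scale. Desmoplakin (Dsp) and occludin (Ocln) were at percentiles 19.5 and 16.7. Cdh1, Epcam, Dsp and Ocln were singled out after their values were seen.

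Of the regulators in this list, Grhl2 and Grhl1 were among the lowest members. Grhl2, a transcription factor that maintains Cdh1 and claudin expression, had deposited values of 3.55, 3.48 and 3.50 (3.51 ± 0.04, n = 3) and per-length percentile 0.90. Its relative Grhl1 was at 4.58. The transcription factor Elf3 was at 20.7, near the median of the list, and the splicing factor Esrp2 at 29.9, above it; both were singled out after their values were seen. Other low members were the surface protease St14 at 1.78 and the tricellular junction proteins Marveld2 and Marveld3 at 4.62 and 1.83. Esrp1, the paralog of Esrp2, and the repressor genes Ovol1 and Ovol2 had no value analysed here. Cdh1 was thus high beside very low Grhl2 and Epcam.

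Mesenchymal genes were divided into a high and a low group. Of 26 genes in the list 17 had a value, with a median per-length percentile of 94.7 (94.6 without library 1). Of these, 12 were above the median gene, 10 in the upper 10% of genes and 5 in the lowest 25%. Cdh11, Pdgfrb, Thy1, Des, Fbn1, Postn, Spock1, Fap and Mme had no value analysed here and do not enter the median. Vim, the intermediate filament of mesenchymal cells, had deposited values of 17.16, 17.26 and 17.23 (17.21 ± 0.05, n = 3). It was at rank 6 on the deposited scale and rank 27 per length, with an abundance of 3494 ± 76.2. Lgals1 had deposited values of 16.15, 16.25 and 16.20 (16.20 ± 0.05) and an abundance of 9086 ± 180. S100a4, a calcium-binding protein of motile cells, had deposited values of 13.90, 13.77 and 13.72 (13.80 ± 0.09) and percentile 99.7. In abundance Vim lay between Krt18 and Krt8, and with the longest transcript as length it was above both, at 4215 ± 86.3 against 3298 ± 112 for Krt8 and 2417 ± 163 for Krt18. In bulk RNA, cells with both filaments and a mixture of cells cannot be told apart.

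Other genes of the high mesenchymal group encode the actin-bundling protein Tagln2 (percentile 99.3), the tropomyosin Tpm1 (98.3), the receptor kinase Axl (97.9), the matrix protein Sparc (97.7) and fibronectin, Fn1 (97.6). The cadherin Cdh2, often gained when E-cadherin is lost, was at 68.3, below Cdh1; Fn1 and Cdh2 were singled out after their values were seen. The low group held contractile and fibroblast genes, but contractile genes were in both groups. Tpm1 and Cald1 (percentile 94.7), the latter singled out after its value was seen, were in the high group. Pdgfra, a growth factor receptor of fibroblasts, had deposited values of 3.97, 4.01 and 3.99 (3.99 ± 0.02, n = 3) and per-length percentile 1.27. Tagln was at 8.41, Myl9 at 13.6, Acta2, the smooth muscle actin, at 18.2 and Tpm2 at 22.9.

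The transcription factors linked to the epithelial-mesenchymal transition were mostly low. Of 18 factors 16 had a value, with a median per-length percentile of 25.9; 5 were above the median gene and 8 in the lowest 25%. Tcf3, an E-protein expressed in most cells, was at 91.2. Twist2 had deposited values of 10.64, 10.80 and 10.76 (10.73 ± 0.08, n = 3) and percentile 77.3, while its relative Twist1 had 5.72, 5.68 and 5.75 (5.72 ± 0.03) and percentile 19.8. Twist2 was the higher of the pair in each library. The E-cadherin repressors Snai1, Zeb1 and Zeb2 were at 59.3, 43.6 and 24.1, with Snai2 between Zeb1 and Zeb2, and Prrx1 was at 5.33. Zeb1 and Zeb2 had mean deposited values of 10.47 and 9.84, above the median of 9.66 over all genes. Their place below the median gene thus rests on the length correction.

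Few markers of cells that a lung metastasis could have carried along were above the median gene. Many members of these lists had no value, so that they could not be checked and do not enter the sums. Of 22 leukocyte genes only Cd68, S100a8 and Coro1a had a value, all below the median gene, and the summed abundance of the list was 13.1 ± 0.34 (n = 3). Endothelial genes (4 of 14 with a value) summed to 17.6 ± 0.10, with Cdh5, the endothelial cadherin, at per-length percentile 2.67. Lung epithelial genes (5 of 15) summed to 51.0 ± 1.15, most of it from the lipid transporter Abca3 (39.0 ± 1.26), and the surfactant genes had no value analysed here. Fibroblast genes (7 of 15) summed to 409 ± 7.19, of which the widely expressed actin-severing protein gelsolin (Gsn) made 383 ± 8.91, while the collagen gene Col3a1 was at percentile 50.6 and decorin (Dcn) at 0.35. Of 10 smooth muscle genes 6 had a value and only Smtn, at 81.7, was above the median gene. None of 8 erythroid genes had a value analysed here.

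Neuroendocrine markers were mostly low. Of 18 genes 8 had a value, with a median per-length percentile of 15.1, and none was in the upper 10%. Foxa2, a forkhead factor of neuroendocrine prostate tumors, had deposited values of 9.12, 9.15 and 9.09 (9.12 ± 0.03, n = 3) and percentile 57.5, and the adhesion molecule Ncam1 was at 54.4. Synaptophysin (Syp) was at 3.78, and Chga, Chgb, Neurod1 and Sox2 had no value analysed here.

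Progenitor-associated genes varied. Of 15 genes 12 had a value, with a median per-length percentile of 76.9, 8 above the median gene and 3 in the upper 10%. Ly6a, which encodes the stem cell antigen Sca-1, had deposited values of 14.46, 14.55 and 14.48 (14.50 ± 0.05, n = 3) and an abundance of 2090 ± 39.8, and its relative Ly6e was at percentile 99.2. The hyaluronan receptor Cd44 had deposited values of 15.38, 15.37 and 15.36 (15.37 ± 0.01) and percentile 98.2. Sox4 and Sox9, factors of epithelial progenitors, were at 79.6 and 75.1. Reads can be shared within the Ly6 family, so that the split between its members is uncertain. The surface genes Lgr4 and Nt5e were at 49.0 and 18.7. Ly6d and Aldh1a1 were at 15.1 and 1.59, and Lgr5, Kit and Thy1 had no value analysed here.

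Of 4 Y-linked genes 3 had a value. The helicase gene Ddx3y had deposited values of 10.33, 10.16 and 10.07 (10.19 ± 0.13, n = 3) and per-length percentile 56.3. The demethylase genes Kdm5d (9.92 ± 0.03) and Uty (8.56 ± 0.14) were at percentiles 28.6 and 21.98. The median of the 3 genes was 28.6, and 53.7 without length correction. Eif2s3y had no value analysed here. Xist, which silences an X chromosome in female cells, had no value analysed here.

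Genes of the Ras-MAPK cascade and its feedback were high as a group. Of 37 genes 36 had a value, with a median per-length percentile of 81.9, 30 above the median gene and 2 in the lowest 25%. Ccnd1, the cyclin through which Ras signals drive G1, had deposited values of 15.29, 15.35 and 15.27 (15.31 ± 0.04, n = 3) and an abundance of 937 ± 17.5. Dusp6, the phosphatase induced by ERK that switches ERK off, had deposited values of 13.16, 13.21 and 13.22 (13.20 ± 0.03) and percentile 96.2. The kinase Mapk3 was at 97.8, the early response gene Ier3 at 97.1 and the AP-1 member Junb at 96.2. The feedback and effector genes Dusp4, Fosl1, Spry1 and Etv4, singled out after their values were seen, were between percentiles 86.5 and 89.1. Etv1, a relative of Etv4, was at 15.1, and Fos, Braf, Ksr1 and Sos1 were also below the median gene.

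The PI3K-Akt-mTOR list was near the middle of the scale. All 26 genes had a value, and the median per-length percentile was 56.2. Akt1, a kinase activated by PI3K, had deposited values of 13.74, 13.84 and 13.85 (13.81 ± 0.06, n = 3) and percentile 96.9. Its isoform Akt2 was at 80.5, and the translation repressor Eif4ebp1, a target of mTOR, at 96.4. At the lower end were the leukocyte kinase subunit Pik3cd at 7.32 and the lipid phosphatase Inpp4b, which acts on a product of PI3K, at 3.35. Messenger levels do not measure the activity of these kinases.

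Growth factor ligands were spread over the whole range. Of 46 ligands 39 had a value, with a median per-length percentile of 49.6 (51.8 without library 1). Areg, a ligand of the EGF receptor, was highest, with deposited values of 13.65, 13.83 and 13.84 (13.78 ± 0.11, n = 3) and an abundance of 1259 ± 76.8. Hdgf, Grn, Vegfa, which drives vessel growth, and Tgfb1 followed at percentiles 98.3, 91.8, 89.2 and 87.7. Egf itself was the lowest, at 0.39, and Igf1, Igf2 and Hgf had no value analysed here. Egfr, the receptor of Areg, had deposited values of 11.49, 11.43 and 11.47 (11.46 ± 0.03) and percentile 59.3.

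Receptor tyrosine kinases were led by Axl and Epha2. Axl, a receptor for the ligand Gas6, had deposited values of 14.58, 14.71 and 14.72 (14.67 ± 0.08, n = 3), and the ephrin receptor Epha2 had 13.71, 13.88 and 13.91 (13.83 ± 0.11). Both were lowest in library 1. They were the only 2 of 21 receptors with a value in the upper 10% per length, at percentiles 97.9 and 96.4, and the median of the list was 38.7 (58.3 without length correction). The collagen receptor Ddr1 was at 86.6 and Met, the receptor of hepatocyte growth factor, at 75.5, while Ddr2, Mertk and Fgfr3 were below 5. Egfr and Met were singled out after their values were seen.

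Proliferation genes were high throughout. All 34 genes of DNA replication and mitosis had a value, with a median per-length percentile of 91.7 (91.5 without library 1), 22 in the upper 10% and 33 above the median gene. The histone variant gene H2afz had deposited values of 13.99, 13.92 and 13.91 (13.94 ± 0.04, n = 3), and the ribonucleotide reductase subunit Rrm2 had 14.10, 14.07 and 13.98 (14.05 ± 0.06). Pcna, the sliding clamp of DNA polymerase, had 13.16, 13.06 and 12.99 (13.07 ± 0.08). Cdc20, an activator of the anaphase-promoting complex, was at percentile 96.1. The kinetochore gene Cenpf, with a long transcript, was the only member below the median gene, at 49.1. Its deposited values were 11.59, 11.40 and 11.17 (11.39 ± 0.21), highest in library 1.

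Genes of G1 and the checkpoints gave a mixed picture. Of 24 genes 22 had a value, and the median per-length percentile of the 21 with a length was 62.4. Beside Ccnd1, its kinase Cdk4 was at 97.0, the cyclin Ccnd2 at 91.5, the tumor suppressor Trp53 at 92.2 and its target Cdkn1a, a kinase inhibitor, at 92.8. Cdkn1a had deposited values of 12.38, 12.54 and 12.54 (12.49 ± 0.09, n = 3), and Trp53 had 12.55, 12.63 and 12.62 (12.60 ± 0.05). The retinoblastoma gene Rb1 was at 43.0, and Cdkn1c at 6.96. Cdkn2a and Cdkn2b had no value analysed here.

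Glycolysis was the highest of the lists by its median. All 18 genes had a value, all were above the median gene, 14 were in the upper 10%, and the median per-length percentile was 97.7. Together they held 2.86%, 3.05% and 3.02% of the summed per-length level in libraries 1 to 3 (2.98 ± 0.10%, n = 3). Pkm, pyruvate kinase, had deposited values of 17.18, 17.31 and 17.27 (17.25 ± 0.07), and Ldha, which makes lactate, had 16.40, 16.52 and 16.48 (16.46 ± 0.06). The glucose transporter Slc2a1 was at percentile 97.2 and hexokinase Hk2 at 93.5. The muscle isoform Pfkm and the brain isoform Aldoc were the lowest but 1 and the lowest, at 70.5 and 69.5.

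Basement membrane genes were strongly expressed. Of 18 genes 16 had a value, with a median per-length percentile of 91.3 (91.5 without library 1), 13 above the median gene and 10 in the upper 10%. The laminin chain Lama5 had deposited values of 15.23, 15.19 and 15.32 (15.25 ± 0.06, n = 3) and percentile 96.8, and Lamc1 and Lamb1, with which it forms a trimer, were at 94.7 and 91.8. Col4a1, a chain of the collagen network of the membrane, had 14.49, 14.47 and 14.53 (14.49 ± 0.03), and its partner Col4a2 had 13.41, 13.45 and 13.49 (13.45 ± 0.04). The linker Nid1 and the proteoglycan perlecan (Hspg2) were at 94.8 and 93.6. Paralogs of these genes were at the bottom of the scale: Nid2 was at 0.40, Lama4, a laminin chain of vessels, at 0.25, and Lama3 at 0.83. The expressed set was thus selective, with 1 nidogen and 1 laminin alpha chain, Lama5, far above the other members with a value.

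Collagens as a whole were spread over the scale. Of 32 collagen genes 22 had a value, with a median per-length percentile of 19.9, and 12 were in the lowest 25%. Apart from Col4a1 and Col4a2, the highest were Col18a1, a basement membrane collagen, at 87.4, Col5a1 at 80.2 and Col6a1 at 59.8. Col1a1, the main chain of fibrillar type I collagen, had deposited values of 8.25, 8.12 and 8.23 (8.20 ± 0.07, n = 3) and percentile 23.8. Col3a1, another fibrillar chain, had a mean of 10.80 and percentile 50.6. Col1a2, with which Col1a1 assembles, had no value analysed here.

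Matrix glycoproteins and proteoglycans included highly expressed genes. Spp1, osteopontin, had deposited values of 15.22, 15.03 and 14.97 (15.08 ± 0.13, n = 3) and an abundance of 2290 ± 237, highest in library 1. Efemp1, the thrombospondin Thbs1 and the membrane proteoglycans Sdc1 and Sdc4 were at percentiles 98.5, 98.4, 98.1 and 97.8. Of 33 genes 27 had a value, with a median percentile of 82.8. Vcan, Fbln1, Ltbp2, Emilin2 and Dcn, matrix genes of stromal cells, were the lowest and all below 9.

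Matrix-degrading enzymes were present together with their inhibitors. Of 42 remodelling genes 36 had a value, with a median per-length percentile of 73.6 and 12 in the upper 10%. The lysosomal protease Ctsd was highest at 99.0, followed by the metalloproteinase inhibitors Timp2 at 98.4 and Timp1 at 96.7, the cathepsin Ctsb at 95.5 and the urokinase receptor Plaur at 94.9. Urokinase itself, Plau, had a mean deposited value of 12.04 ± 0.04 (n = 3) and percentile 93.6, and the membrane metalloproteinase Mmp14 had values of 13.29, 13.25 and 13.26 (13.27 ± 0.02) and percentile 93.0. Plau and Mmp14 were singled out after their values were seen. The gelatinase Mmp9 was low, at 18.3, and Mmp2 had no value analysed here.

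Integrins and other adhesion genes were high as a group. Of 26 integrin and adhesion genes 22 had a value, with a median per-length percentile of 86.5. Itgb1, the common beta chain, had a mean deposited value of 14.94 ± 0.06 (n = 3) and percentile 98.6, and Itga3, a laminin receptor chain, had values of 15.05, 15.13 and 15.17 (15.12 ± 0.06) and percentile 98.2. Itga6 was next to Itga3 among the laminin receptors, and the adaptor kinase Ilk was at 95.9. Itga1, a collagen receptor chain, was at 0.06, and Itgb6 at 0.60.

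Cytokines and other secreted factors were spread over the whole range. Of 36 genes 25 had a value, with a median per-length percentile of 45.6 (52.2 with low values left out, 29.7 without length correction), and 9 were in the upper 10%. The highest were Lgals1, the calcium-binding proteins S100a11 and S100a6, at ranks 6 and 10 per length, Spp1 and the factor Mif at 99.3. Il1rn, an antagonist of interleukin 1, and the interleukin Il33, singled out after their values were seen, were at 95.3 and 84.4. S100a4 and S100a6 lie in a cluster of S100 genes, and 11 such genes with a length held 2.05 ± 0.03% of the summed per-length level. Cxcl10, Il18, Tslp, Cxcl5 and Ccl5 were the lowest, all below 14. The interleukins Il1a, Il1b, Il6 and Il11 had no value analysed here.

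Class I antigen presentation genes varied. Of 16 genes 14 had a value, and the median per-length percentile of the 13 with a length was 68.1. B2m, the light chain of class I molecules, had deposited values of 12.10, 12.21 and 12.20 (12.17 ± 0.06, n = 3) and per-length percentile 98.0, and the heavy chains H2-D1, H2-K1 and H2-Q4 were at 96.7, 94.9 and 32.3. The loading factor Tapbp was at 82.9, the immunoproteasome subunit Psmb10 at 68.1 and the trimming enzyme Erap1 at 46.4. The peptide transporter Tap1 was at 19.3, the subunit Psmb8 at 14.5 and Cd274, the checkpoint ligand PD-L1, at 8.60. These 3 genes are induced by interferon in many cells, but a response to interferon was not tested here. Heavy chain genes are near-identical and may share reads.

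Among H3K36 methyltransferases, Nsd2, an enzyme that the study examined, had deposited values of 12.48, 12.43 and 12.42 (12.44 ± 0.03, n = 3). Its relatives Nsd1 and Nsd3 had 12.08, 11.88 and 11.95 (11.97 ± 0.10) and 11.54, 11.38 and 11.40 (11.44 ± 0.09). Per length the order was the same, with Nsd2 at percentile 65.9, Nsd1 at 57.0 and Nsd3 at 48.4. The trimethylase Setd2 had 11.46, 11.23 and 11.14 (11.28 ± 0.16) and percentile 57.1, and did not differ from Nsd1 per length beyond the spread. Setd3 and Smyd2, which also act on proteins other than histones, were higher, at 86.9 and 85.3. All 8 genes had a value and the median percentile was 57.1.

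Position-identity genes were unevenly expressed. Of 39 Hox genes 22 had a value, and the median per-length percentile of the 21 with a length was 38.4 (25.4 without length correction). Hoxb9 was highest, with deposited values of 11.79, 11.93 and 11.95 (11.89 ± 0.09, n = 3) and percentile 91.8, followed by Hoxa11 at 85.4, Hoxa10 at 83.3, Hoxb13 at 78.5 and Hoxb7 at 75.0. Hoxa4, Hoxa2 and Hoxa3, which pattern anterior levels, were among the 5 lowest, at 10.7, 16.3 and 17.3. All 11 Hoxa genes and 8 of 10 Hoxb genes had a value, against 3 of 9 Hoxd genes and none of 9 Hoxc genes. The 5 highest members lie in the Hoxa and Hoxb clusters.

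Of 242 transcription factors 204 had a value, with a median per-length percentile of 59.6. The 15 highest were Ybx1, Hmga1, Atf4, Ybx3, Jund, Junb, Hif1a, Nfe2l1, Hmga2, Atf5, Tsc22d1, Srebf2, Tfdp1, Nfic and Myc. Hmga1 and Hmga2, chromatin proteins of embryonic and tumor cells, had deposited values of 13.90, 14.14 and 14.12 (14.05 ± 0.13, n = 3) and 13.82, 13.81 and 13.71 (13.78 ± 0.06). Of 15 oncofetal genes, a list that holds both, 8 had a value, with a median percentile of 48.5 (82.6 with low values left out). Cd24a was at 97.1 and the RNA-binding protein Igf2bp2 at 72.4, whereas its relative Igf2bp1 was at 8.56, H19 at 5.42 and Afp at 3.25. Myc had deposited values of 11.94, 12.12 and 12.17 (12.08 ± 0.12) and percentile 92.6, whereas Mycn and Mycl were at 1.51 and 3.2.

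Library 1 differed over most genes, and large differences were few. Among the 6421 genes with a mean above the median, 24 had an SD above 0.25, and in all of the 20 genes of largest spread library 1 was the farthest from the middle value. It was above both other libraries in 16 and below both in 4. The 4 genes lower in library 1 were Trib3, Ddit3 and Ppp1r15a, which are induced when the factor Atf4 responds to stress, and the metalloreductase Steap1. Trib3 had deposited values of 11.20, 11.71 and 11.94 (11.61 ± 0.38, n = 3), and Ddit3 had 9.57, 9.89 and 10.10 (9.85 ± 0.27). Atf4 and its target factor Atf5 were also lowest in library 1, with deposited values of 13.99, 14.16 and 14.28 and of 11.62, 11.95 and 12.10. Both were outside the 20 genes of largest spread and were singled out here after their values were seen. Over all genes, library 1 was the farthest from the middle value for 56.7%.

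The 16 genes higher in library 1 were of varied function. Malat1, a nuclear noncoding RNA, had deposited values of 11.79, 11.08 and 11.24 (11.37 ± 0.37, n = 3), and Hnrnph1, a splicing regulator, had 12.23, 11.65 and 11.66 (11.85 ± 0.33). The splicing kinase Clk1 and the splicing factors Luc7l3 and Pnisr were among them, as were Idi1, an enzyme of sterol synthesis, Tfrc, the transferrin receptor, the ligand Kitl, the translation factor Eif4a2 and the RNA-binding protein Fmr1. No function was tested for enrichment. mt-Atp8 had 13.28, 12.68 and 12.54 (12.84 ± 0.39); it overlaps mt-Atp6, so that its reads may be shared. The part of culture state or RNA handling in these differences was not tested. When library 1 was left out, 6 of these 20 genes were among the 20 of largest spread between libraries 2 and 3.

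**Figure D3:**
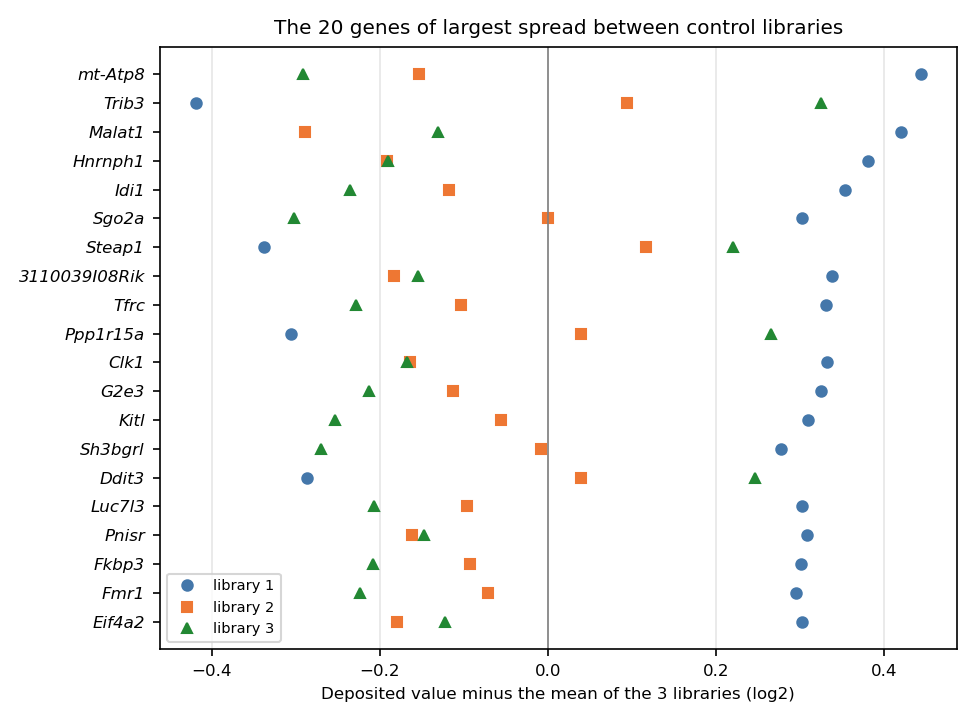
Deposited log2 value of each control library minus the mean of the 3 libraries for the 20 genes of largest SD among genes with a mean above the median (circle, library 1; square, library 2; triangle, library 3). Library 1 lies on the far side in every row, to the left for Trib3, Steap1, Ppp1r15a and Ddit3 and to the right for the other 16 genes.

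Promoters were compared as a property that the ranking did not use. Gene lists and ribosomal proteins were matched by symbol whatever their level, so that their counts describe promoters and not these cells. RefSeq promoter sequences (GRCm38.p6, 250 bases before to 50 after the first listed start) were matched by symbol for 9563 of the genes with a length, and 4 features were counted in 9 gene groups. In the replication and mitosis list, 22 of 26 promoters (84.6%) held the letters CCAAT on either strand in the 250 bases before the start, against 36.8% of all 9563. At least 2 matches were found in 16 of the 26 promoters (61.5%), against 13.7% of all. CCAAT is the sequence bound by the factor NF-Y, and a match describes letters only. The 5 members highest per length with a match within 120 bases of the start are shown from 120 bases before the start to the last base before it, with CCAAT or its reverse complement ATTGG in capitals.
Rrm2 (chr12:24708134-24708253, plus strand): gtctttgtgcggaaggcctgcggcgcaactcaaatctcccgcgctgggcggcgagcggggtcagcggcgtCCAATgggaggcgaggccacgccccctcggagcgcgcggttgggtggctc
Pcna (chr2:132253181-132253300, minus strand): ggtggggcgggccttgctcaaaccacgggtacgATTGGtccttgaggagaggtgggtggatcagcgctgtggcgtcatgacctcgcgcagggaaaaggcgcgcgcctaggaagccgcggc
Cdc20 (chr4:118437344-118437463, minus strand): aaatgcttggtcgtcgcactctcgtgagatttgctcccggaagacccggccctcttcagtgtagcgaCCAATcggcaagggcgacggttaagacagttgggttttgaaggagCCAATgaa
Ccnb2 (chr9:70421555-70421674, minus strand): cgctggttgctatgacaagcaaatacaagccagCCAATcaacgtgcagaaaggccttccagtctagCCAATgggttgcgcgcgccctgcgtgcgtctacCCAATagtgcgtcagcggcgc
Hmgb2 (chr8:57511723-57511842, plus strand): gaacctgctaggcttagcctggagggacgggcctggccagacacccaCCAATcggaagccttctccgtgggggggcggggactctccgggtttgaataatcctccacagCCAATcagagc

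Start features of highly expressed genes were also counted. Transcripts of the translation machinery often begin with a C followed by pyrimidines, a feature through which mTOR controls their translation. A C at the annotated start followed by 4 pyrimidines was found in 13 of 59 ribosomal protein promoters, against 2.35% of all 9563. Annotated starts can be off by some bases, so that the count is approximate. From those high per length, 4 of these genes are shown from 20 bases before the start to base 10 of the transcript. They are not strictly the 4 highest. The C and the 4 pyrimidines are in capitals.
Rps6 (chr4:86857358-86857387, minus strand): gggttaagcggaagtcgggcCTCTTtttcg
Rpl14 (chr9:120571497-120571526, plus strand): cggcagggcgggccctctctCTTCTcgctg
Rpl38 (chr11:114668560-114668589, plus strand): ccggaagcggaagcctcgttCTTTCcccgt
Fau (chr19:6057927-6057956, plus strand): ggacgtgcgcgcccccacttCTTCCtcttt

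The TATA box, at which the general transcription machinery binds, was uncommon. The letters TATAAA, read on the strand of the gene and starting between 40 and 20 bases before the start were found in 114 of 9563 promoters (1.19%), in 24 of the 1000 highest per length (2.40%) and in 5 of the 100 highest, both among genes with a promoter. Of the 30 genes highest per length 16 had a promoter in the table, and Vim was the only 1 of these with TATAAA in that position; its last 60 bases before the start are shown with the letters in capitals.
Vim (chr2:13574251-13574310, plus strand): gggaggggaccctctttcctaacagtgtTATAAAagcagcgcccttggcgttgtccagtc

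The letters TGANTCA, bound by AP-1 factors such as Junb and Fosl1, were found in 474 of 9563 promoters (4.96%) and in 4 of 23 promoters of the matrix remodelling list (17.4%). They were found in none of 24 promoters of the Ras-MAPK list and none of 11 promoters of the mesenchymal list. The median number of CG pairs was 21 in the 300 bases of all promoters, 6 in the 11 mesenchymal promoters and 5.5 in the 6 keratin promoters.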

How the data were processed

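RNA from cultured NPK cells was sequenced as poly-A libraries. The authors deposited log2-scale expression values already scaled between libraries; the header does not name the transform. The paper reports variance stabilization for its profiles of lineage-marked cells, and does not say whether it applies to these libraries. The submitters' processing notes name build mm9, bcl2fastq 1.8.4, TopHat, Cufflinks, DESeq and DESeq2. Only the 3 control columns were used; 3 columns matched no described sample and were not used. Depth is unknown. Genes were matched by Ensembl ID to GENCODE M21 (GRCm38) for merged exon lengths (12513 of 12842 genes), and no coordinates were carried between builds. Lists (36) were matched by current or file symbol and summarised without tests in Python with pandas and numpy. The scripts were tested on simulated levels. Members and lists were chosen with earlier results of these data known. Named genes were the 30 highest on each scale, the 5 highest and 5 lowest of each list (all of lists up to 20), the 15 highest transcription factors, the 20 of largest SD, and the H3K36 methyltransferases and keratins. Some of these genes are not reported here. Alternatives were transcript length, no length correction, linear means, a filter on low values and leaving out each library.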

Additional observations from a re-analysis of the deposited data

How the results depend on the processing

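Values are median per-length percentiles unless stated. With the longest transcript as length they were 80.2 for luminal, 29.7 for basal, 20.4 for epithelial junction, 97.4 for mesenchymal and 90.9 for basement membrane genes, and the 100 highest genes held 31.8% of the summed level. Without length correction they were 70.5, 31.4, 26.8, 97.3 and 96.2, and the share was 21.3%. With genes at or below 3.77, the median of the lowest 10% of values, left out, they were 84.2, 45.1, 23.1 and 92.8 for luminal, basal, epithelial junction and basement membrane genes, and 91.3 for replication and mitosis; low members then drop out of the lists. Each of these medians stayed on its side of 50. Other lists crossed it. Without length correction the median moved from 28.6 to 53.7 for Y-linked genes, from 38.7 to 58.3 for receptor tyrosine kinases and from 48.5 to 63.6 for oncofetal genes. With the filter it moved from 48.5 to 82.6 for oncofetal genes, from 45.6 to 52.2 for cytokines and secreted factors and from 49.6 to 50.3 for growth factor ligands; the ligands were at 51.8 without library 1, and oncofetal genes at 50.6 with the longest transcript. H3K36 methyltransferases moved from 57.1 to 81.5, Hox genes from 38.4 to 25.4 and cytokines from 45.6 to 29.7 without length correction. Lists of other cell types stayed below 50 but moved by over 1.5 times: leukocyte from 22.6 to 9.83 and smooth muscle from 13.2 to 7.35 without length correction, lung epithelium from 13.2 to 31.0 and fibroblast from 7.74 to 20.02 with the filter. Linear means moved no list median by more than 0.13. Leaving out each library in turn moved the medians of 34 lists by at most 2.21 points. Of the 30 genes highest per length, 22 were shared when the longest transcript was used and 29 without library 1. No paired analysis was possible because the values come from no test and from 1 group. Depth is unknown and low values are compressed, which limits the order of genes near the bottom.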
